A study of Homo sapiens with 29 samples.

Results

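Sites of the transcription factor YY1 in HepG2 and in Huh7, which are both human cell lines of liver cancer origin, were compared. They had been found by ChIP-seq, in which DNA bound by a protein is pulled down with an antibody and sequenced. The lists hold 39293 YY1 peaks in HepG2 and 21554 in Huh7, which together are 60847 of the 151036 peaks in the 9 lists of the study. A peak was called shared when it overlapped a peak of the other line by at least 1 bp on the hg19 genome build, and HepG2-only or Huh7-only otherwise. This gave 14119 shared peaks and 25174 HepG2-only peaks in the HepG2 list, and 14179 shared peaks and 7375 Huh7-only peaks in the Huh7 list. The shared counts differ because a wide peak in 1 line can cover several narrow peaks in the other.

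The study asked where the INO80 chromatin remodelling complex sits in the genome, and it mapped INO80, MCRS1, RUVBL1 and RUVBL2 beside YY1. The Huh7 list comes from 2 libraries of untreated Huh7 cells, fixed in 0.3% formaldehyde and precipitated with the YY1 antibody H414-X sc-1703 of Santa Cruz. The HepG2 list comes from public ENCODE reads taken through the same processing, and its antibody, culture and number of libraries are not given in the sources used here. Differences between the lines therefore cannot be told apart from differences between laboratories, antibodies and sequencing depth. Each line has 1 list, with positions and no peak height, so no replicate check exists and no test was made. Percentages below carry 95% Wilson intervals where given, which cover counting error only.

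YY1 is a zinc finger protein present in nearly all cell types. It binds a short DNA element centred on the letters ATGG, often just downstream of a transcription start, and can activate or repress genes. It is a subunit of the INO80 complex, which slides nucleosomes, and it is also known to link promoters with distant regulatory DNA and to bind the start of L1 retrotransposons.

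The sequences printed here are examples from the 3 classes that hold the long form of the YY1 element, AANATGGCG, where N is any base. They are named after the nearest coding gene and were taken from the widest peaks with that element in the 200 bases about the peak centre. All are hg19 sequence read 5′ to 3′ on the stated strand, with the element in capitals. Shared examples are KMT2B, a histone H3 lysine 4 methyltransferase gene (chr19:36208908-36208936, plus strand, in a coding exon, in a peak of 3359 bp over the start), and a site 65571 bp from KCNRG (chr13:50656084-50656164, plus strand, intergenic).
KMT2B: tcacggtgccAAGATGGCGgcggcggcgg
KCNRG: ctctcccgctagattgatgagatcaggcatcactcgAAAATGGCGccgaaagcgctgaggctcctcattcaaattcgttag
HepG2-only examples are PEG3, an imprinted zinc finger gene whose first intron is known for YY1 elements (chr19:57350376-57350456, plus strand, in an intron annotated to PEG3 and ZIM2), and a site 63809 bp from ACSL3, a long-chain fatty acid activating enzyme gene (chr2:223661266-223661346, minus strand, intergenic).
PEG3: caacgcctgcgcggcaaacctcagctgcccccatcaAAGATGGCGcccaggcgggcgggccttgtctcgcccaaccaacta
ACSL3: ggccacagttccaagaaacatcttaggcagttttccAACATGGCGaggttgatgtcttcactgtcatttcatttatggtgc
Huh7-only examples are ZNF506, a zinc finger gene (chr19:19932206-19932286, minus strand, in an intron), GALC, a lysosomal galactosylceramidase gene (chr14:88459567-88459647, minus strand, in an intron), and a site 6936 bp from SKIDA1 (chr10:21799053-21799133, plus strand, intergenic).
ZNF506: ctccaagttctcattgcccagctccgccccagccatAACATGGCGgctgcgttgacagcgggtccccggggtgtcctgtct
GALC: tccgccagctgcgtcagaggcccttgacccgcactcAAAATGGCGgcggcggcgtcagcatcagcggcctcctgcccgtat
SKIDA1: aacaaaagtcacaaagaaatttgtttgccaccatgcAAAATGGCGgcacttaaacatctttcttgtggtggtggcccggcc
These peaks were chosen because they hold the element, so they show its setting and not how often a class holds it. Its share in each class of promoter and distal peaks is given below.

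The shared sites lay mostly at gene starts and the sites of 1 line mostly away from them. A promoter peak is here a peak within 1 kb of a protein-coding start, and every other peak is distal. In the HepG2 list 8596 shared peaks were promoter peaks (60.9%, interval 60.1 to 61.7), against 3746 HepG2-only peaks (14.9%, 14.4 to 15.3), a difference of 46.0 percentage points (45.1 to 46.9). In the Huh7 list 8745 shared peaks (61.7%, 60.9 to 62.5) and 1120 Huh7-only peaks (15.2%, 14.4 to 16) were promoter peaks, a difference of 46.5 points (45.3 to 47.6). With peaks set to their central 200 bp the differences were 35.2 points in the HepG2 list and 22.9 points (21.6 to 24.2) in the Huh7 list. The private sites of the lines had nearly the same promoter share, with Huh7 above HepG2 by 0.306 points (-0.610 to 1.25).

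Shared sites also lay on the starts themselves more often. Of the shared promoter peaks 94.3% covered a start in the HepG2 list and 75.4% in the Huh7 list, against 65.5% of HepG2-only and 32.5% of Huh7-only promoter peaks. Among distal peaks, the median distance to a coding start was 35842 bp for shared peaks of the HepG2 list, 24384 bp for HepG2-only and 14650 bp for Huh7-only peaks. The Huh7-only distal peaks were thus the nearest to starts, and 59.6% of them had their centre inside a coding gene, against 48.6% of HepG2-only and 40.8% of shared distal peaks of the HepG2 list. The 200 bases about the centre had a median GC content of 65.5% in shared and 56.5% in HepG2-only peaks of the HepG2 list, and 66% in shared and 60.5% in Huh7-only peaks of the Huh7 list.

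**Figure D1:**
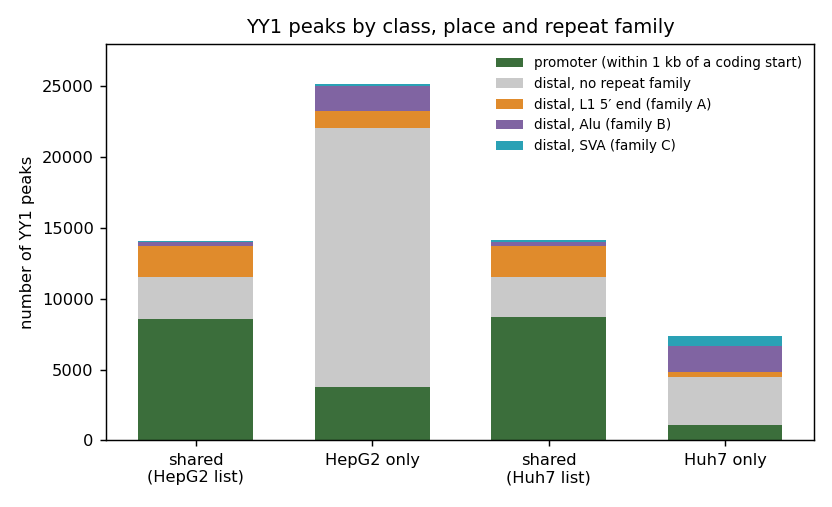
Number of YY1 peaks (vertical axis) in each class of each list, split into promoter peaks and distal peaks of 3 repeat families or none. The promoter block is the largest of the shared bars (8596 and 8745 peaks). The HepG2-only bar is mostly distal sequence of none of these 3 families (18341 of 25174 peaks), whose words were not collected from HepG2-only peaks.

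Shared peaks were wider than private ones in both lists. The median width of promoter peaks was 979 bp for shared and 395 bp for HepG2-only peaks in the HepG2 list, and 647 bp for shared and 238.5 bp for Huh7-only peaks in the Huh7 list. Distal peaks were narrower in every class, with medians of 281 bp for shared and 221 bp for HepG2-only peaks, and 457 bp for shared and 199 bp for Huh7-only peaks. The share of HepG2 peaks found in Huh7 went from 14.2% of the peaks under 250 bp to 83.3% of those of 1000 bp or more. The share of Huh7 peaks found in HepG2 went from 37.8% to 87.7% over the same widths. A wider peak meets the 1 bp rule more easily, so width and class are not independent. With all peaks set to their central 200 bp, 24.3% of HepG2 and 44.2% of Huh7 peaks were shared.

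The difference in place was also present among peaks of like width. Among the HepG2 peaks of 500 to 1000 bp, 75.1% of the shared and 35.2% of the HepG2-only peaks were promoter peaks, and 91.6% and 69.1% overlapped an INO80 peak of HepG2. Among the Huh7 peaks of that width the promoter shares were 62.9% for shared and 23.2% for Huh7-only peaks, and the INO80 shares 76.2% and 35.6%. In the narrowest HepG2 peaks, under 250 bp, the promoter shares were close, at 9.39% for shared and 7.69% for HepG2-only peaks. In Huh7 peaks of that width they stayed apart, at 48.9% for shared and 12.5% for Huh7-only peaks.

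At sites where exactly 1 peak of each line met, the wider peak changed with the place. At 8290 promoter pairs the median width was 961 bp in HepG2 and 670.5 bp in Huh7, and HepG2 was wider in 73.3%. At 5486 distal pairs it was 280 bp in HepG2 and 474 bp in Huh7, and HepG2 was wider in 41%. The distal pattern came with a repeat described below: with that repeat left out, the distal medians were 479 bp in HepG2 and 404 bp in Huh7 over 3280 pairs.

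**Figure D2:**
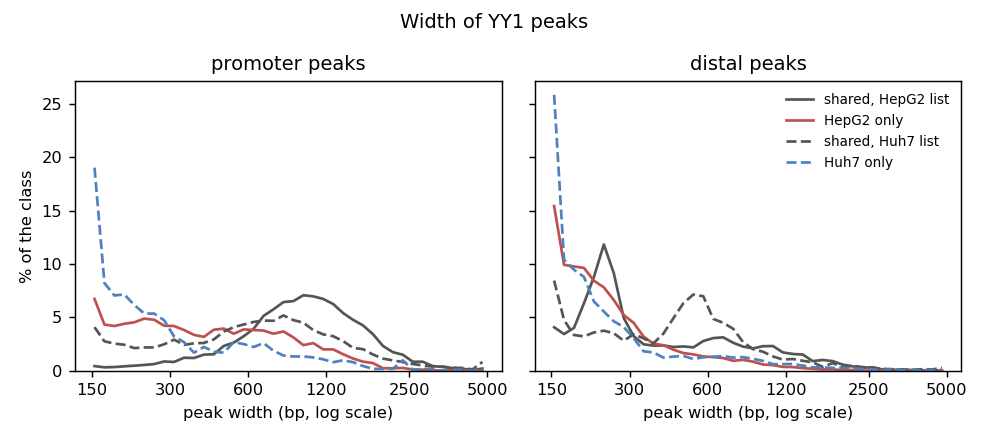
Width of YY1 peaks (horizontal axis, bp on a log scale) as a percentage of each class (vertical axis), for promoter peaks on the left and distal peaks on the right, with peaks over 5000 bp counted in the last point. Shared promoter peaks centre near 1 kb in HepG2 (median 979 bp), and the shared distal peaks of the lists form separate humps (medians 281 bp in HepG2 and 457 bp in Huh7).

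The median centre of promoter peaks lay downstream of the start in every class but HepG2-only. The peak centre lay downstream of the nearest coding start in 57.1% of shared (interval 56.1 to 58.2) and 49.0% of HepG2-only promoter peaks (47.4 to 50.6) of the HepG2 list, with median positions of +20 and -2 bp. In the Huh7 list it lay downstream in 63.8% of shared (62.8 to 64.8) and 61.9% of Huh7-only peaks (59.0 to 64.7), with medians of +62 and +105 bp. Huh7-only promoter peaks were the most spread, with the middle 50% between -163 and +416 bp, against -72 and +142 bp for shared peaks of the HepG2 list.

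**Figure D3:**
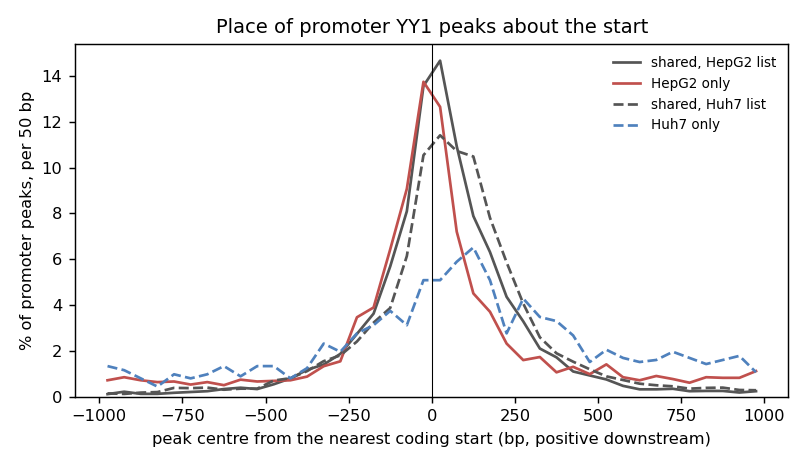
Place of the centre of promoter YY1 peaks relative to the nearest coding start (horizontal axis, bp, positive downstream), as a percentage of the class in bins of 50 bp. Shared and HepG2-only peaks crowd at the start (medians +20 and -2 bp in the HepG2 list), while Huh7-only peaks spread further downstream (median +105 bp).

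The long YY1 element was commonest in shared promoter peaks. The motif was searched on both strands in the 200 bases about the peak centre. It was present in 5.46% of shared (interval 5.00 to 5.96) and 1.17% of HepG2-only promoter peaks of the HepG2 list, and in 5.82% of shared and 1.52% of Huh7-only promoter peaks of the Huh7 list. Among distal peaks it was in 1.97% of shared and 1.71% of HepG2-only peaks of the HepG2 list. In the Huh7 list it was in 3.74% of shared and 2.54% of Huh7-only distal peaks. For comparison, 4.07% of the 55751 windows of that length about coding starts held it, and 0.398% of windows spread over the genome. The shorter form AANATGG, which also matches every long element, was less informative: 11.5% of shared promoter peaks of the HepG2 list, 11.5% of coding starts and 19.3% of genome windows held it.

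Where the long element was present in a shared promoter peak it mostly read in the direction of the gene. It lay on the strand of the gene in 77.2% of 469 shared peaks of the HepG2 list (73.2 to 80.8) and in 74.7% of 509 shared peaks of the Huh7 list (70.7 to 78.2). In HepG2-only promoter peaks it lay on that strand in 50% of 44 peaks (35.8 to 64.2), and in Huh7-only promoter peaks in 76.5% of 17 (52.7 to 90.4). In the shared peaks of the HepG2 list the median place of the element was +18 bp from the start, and 59.1% of the elements lay between the start and +100 bp, against 22.7% in HepG2-only peaks. Strand and place of the element were not counted over all coding starts, so these shares have no background here.

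A single kind of repeat made up a large part of the shared distal sites. Words of 20 bases that recurred among distal peaks were collected, and this search was made after the peaks had been examined. The commonest word among shared distal peaks was
L1 word: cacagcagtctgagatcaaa
which is part of the 5′ end of the L1 retrotransposon, a mobile element with many near-identical copies in the human genome. Peaks holding at least 3 words of this kind in 400 bases made up 39.9% of the shared distal peaks of the HepG2 list (2206 of 5523, interval 38.7 to 41.2) and 40.4% of those of the Huh7 list. They made up 5.62% of HepG2-only and 5.15% of Huh7-only distal peaks, and 0.181% of 285865 windows spread over the genome. The repeat names rest on known consensus sequences, and no repeat annotation was used.

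How many L1 ends carried YY1 depended on how many of the words they held. Of 7708 genome stretches with at least 3 words, the rule for a peak, 30.4% had YY1 in both lines and 53.2% in neither, and of 3703 with at least 100 words 61.7% had it in both. Of 2514 genome stretches with at least 200 of the words, 2079 (82.7%) had YY1 in both lines, 292 (11.6%) in HepG2 alone, 63 (2.51%) in Huh7 alone and 80 (3.18%) in neither. The words were collected from shared peaks, so a minimum number of them favours copies with YY1 in both lines. The peaks sat at different places in the copies. Over 1850 pairs the centre in Huh7 was a median of 137 bp nearer to the start of the repeat, and the median width was 236 bp in HepG2 and 504.5 bp in Huh7. The known YY1 site at the start of L1 appeared in these copies as
L1 start: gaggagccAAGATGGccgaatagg
with the short element in capitals, at 2067 of 4112 L1 peaks of both lists that had a short element followed by C between 150 and 500 bp before the word above. The commonest distance was 378 bp. Of the shared peaks with such an element, 33.4% in Huh7 and 7.88% in HepG2 reached it. INO80 in the same line overlapped 50.3% of these shared L1 peaks in Huh7 and 3.49% in HepG2. The sources used here do not say how reads from near-identical copies were placed. A copy with a peak may stand for another copy, and the part of read placement in these values was not tested.

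Other repeats were found at a part of the Huh7-only distal sites. The commonest words there belonged to Alu, the most abundant short repeat of the human genome, and to SVA, a composite repeat, found once the Alu words were set aside. Alu words marked 30.0% of Huh7-only distal peaks (1879, interval 28.9 to 31.2), against 8.22% of HepG2-only and 4.33% of shared distal peaks of the HepG2 list, and 16.7% of genome windows. SVA words marked 10.8% of Huh7-only distal peaks (675), 0.569% of HepG2-only and 2.39% of shared distal peaks, and 0.115% of genome windows. Of the Huh7-only Alu peaks 41% held the short YY1 element in the central 200 bases, and the SVA peaks held it in 0.296%. INO80 of Huh7 overlapped 11.2% of the Huh7-only Alu peaks and 0.296% of the SVA peaks, which had median widths of 179 and 213 bp. No family was assigned to 85.6% of HepG2-only, 54.0% of Huh7-only and 53.3% of shared distal peaks of the HepG2 list. The L1 words were collected from shared distal peaks and the Alu and SVA words from Huh7-only ones. None were collected from HepG2-only peaks, so these shares favour the classes that were searched.

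Outside these repeats the distal sites of HepG2 held binding letters of liver and enhancer factors more often than those of Huh7. TGTTTAC, the element of the FOXA pioneer factors of liver, was in 6.08% of HepG2-only (interval 5.74 to 6.43) and 1.12% of Huh7-only distal peaks (0.820 to 1.54), and in 3.16% of genome windows. CAAAGTCCA, a form of the element of the hepatocyte nuclear receptor HNF4A, was in 1.53% and 0.207%, with 0.253% of genome windows. TGANTCA, the element of AP-1, was in 8.96% (8.56 to 9.39) and 2.57% (2.09 to 3.17), with 6.23% of genome windows, and CCACNAGNG, part of the element of the insulator protein CTCF, in 9.53% and 3.97%, with 1.42% of genome windows. All letters were searched on both strands in 200 bases, and none of these motifs contains another. Huh7-only distal peaks outside the repeats were thus below the level of unselected genome windows for FOXA and AP-1 letters, and above it for CTCF letters. GGGCGGG, the element of SP factors, went the other way, with 7.12% of HepG2-only and 12.1% of Huh7-only distal peaks, against 22.1% of shared distal peaks outside repeats and 1.03% of genome windows. The genome windows include repeats and were not matched to the peaks in base composition. The classes also differ in it, with a median GC content over all distal peaks of 55.5% in HepG2-only and 59.5% in Huh7-only. The part of base composition in these motif shares was not tested. Within the L1 copies the FOXA letters are part of the repeat, and 86.1% of shared L1 peaks of the HepG2 list held them.

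INO80 subunits lay at shared sites more often than at private ones. In HepG2, INO80 overlapped 95.3% of shared and 61.6% of HepG2-only promoter peaks, MCRS1 95.8% and 62.7%, and RUVBL2, an ATPase of several chromatin complexes, 69.5% and 21.8%. In Huh7, INO80 overlapped 72.8% of shared and 44.2% of Huh7-only promoter peaks, MCRS1 37.7% and 7.14%, and RUVBL2 23.8% and 6.16%. At distal sites INO80 overlapped 42.9% of shared and 21.3% of HepG2-only peaks in HepG2, and 48.8% of shared and 12.6% of Huh7-only peaks in Huh7. With all peaks reduced to their central 200 bp the INO80 shares at promoters were 58.2% and 32.9% in HepG2, and 44.7% and 24.2% in Huh7, so the order held in both lines.

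INO80 of the other line was unequal at private sites. At HepG2-only promoter peaks INO80 of Huh7 was present in 22.1%, and at Huh7-only promoter peaks INO80 of HepG2 was present in 45.2%. At full peak width, Huh7-only promoter peaks thus carried INO80 about as often in HepG2, where YY1 was not called, as in Huh7 (44.2%). With all peaks reduced to their central 200 bp these shares were 19.1% for INO80 of HepG2 and 24.2% for INO80 of Huh7. The INO80 list of HepG2 is longer than that of Huh7, and its part in this difference was not tested.

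Counted by gene, YY1 lay within 1 kb of a start in both lines at 9604 of 19785 protein-coding genes (48.5%), in HepG2 alone at 2777 (14%) and in Huh7 alone at 595 (3.01%), which leaves 6809 genes with YY1 in neither. In each line the genes with YY1 were 62.6% in HepG2 and 51.5% in Huh7. A gene counts for both lines when each has a peak at one of its starts, also where those peaks do not overlap. These percentages are the background against which the counts of the gene lists that follow are read.

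**Figure D4:**
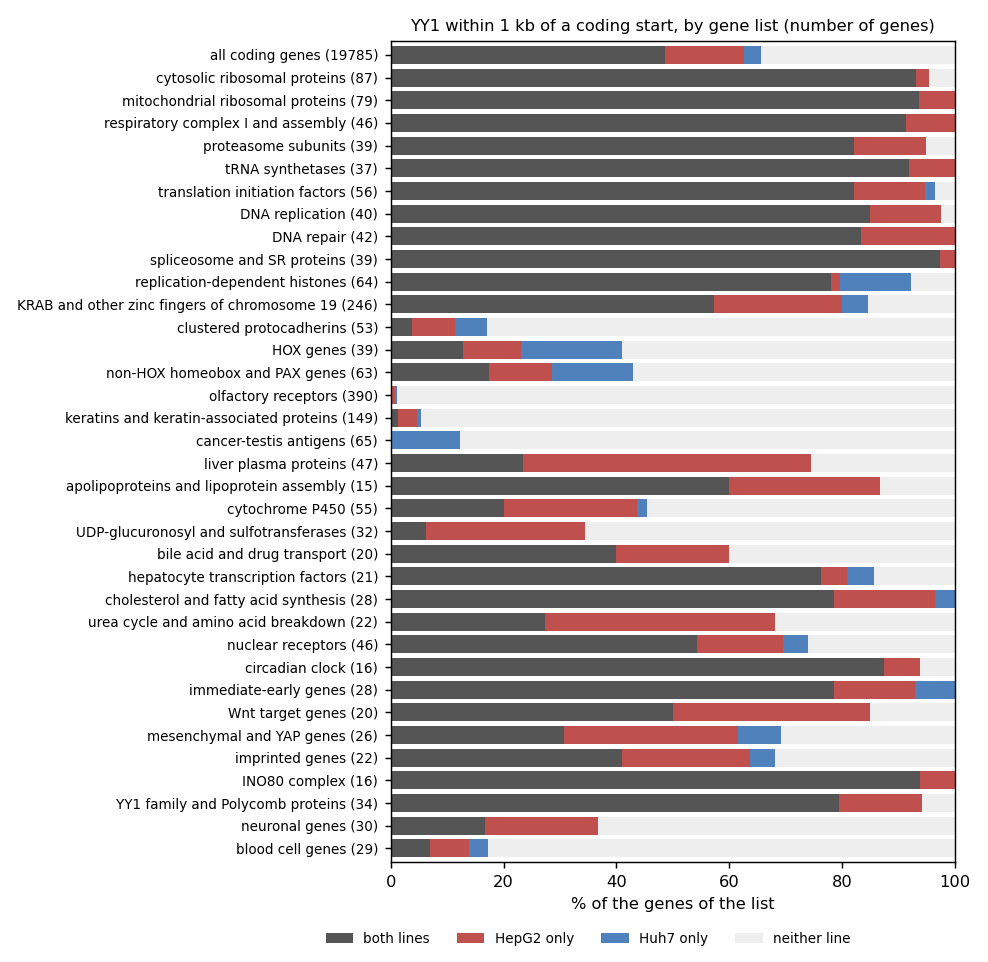
Percentage of the genes of each list (horizontal axis) with YY1 within 1 kb of a coding start in both lines, in HepG2 alone, in Huh7 alone or in neither, with the number of genes in brackets. The lists of basic cell machinery are mostly grey, liver plasma proteins and urea cycle genes have the longest HepG2-only segments (51.1% and 40.9%), and HOX genes have the longest Huh7-only segment (17.9%).

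Genes of the basic cell machinery had YY1 in both lines nearly throughout. Both lines held YY1 at 81 of 87 cytosolic ribosomal protein genes, 74 of 79 mitochondrial ribosomal protein genes, 42 of 46 genes of respiratory complex I and its assembly, 34 of 37 tRNA synthetase genes and 38 of 39 spliceosome and SR protein genes. No gene of these 5 lists had YY1 in Huh7 alone. The exceptions in HepG2 alone included RPL34, of the large ribosomal subunit (573 bp peak), MRPS23, of the mitochondrial ribosome (1490 bp), NDUFAF7, an assembly factor of complex I (1619 bp), WARS1, the tryptophan tRNA synthetase (829 bp), and SNRPC, of the U1 particle of the spliceosome (769 bp).

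Lists of protein turnover and genome maintenance also had YY1 in both lines at most genes, with shares of HepG2 alone (12.8%, 12.5%, 16.7% and 12.5% in the order below) near the 14% of all coding genes. YY1 was in both lines at 32 of 39 proteasome subunit genes, with 5 in HepG2 alone led by PSMD13 (1308 bp), PSMB9 (1150 bp) and PSMB8 (1085 bp), of which PSMB9 and PSMB8 encode immunoproteasome subunits. DNA replication genes had YY1 in both lines at 34 of 40 and in HepG2 alone at 5, among them PRIM2, the large primase subunit (1195 bp), and RFC1, of the clamp loader (1024 bp). DNA repair genes had it in both at 35 of 42 and in HepG2 alone at 7, including XRCC1, a scaffold of single-strand break repair (1219 bp), and ERCC2, a repair helicase (1144 bp). Translation initiation factors had it in both at 46 of 56 and in HepG2 alone at 7.

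Peak width separated some of these lists between the lines. Over all genes with YY1 in both, the median width of the widest peak was 1008 bp in HepG2 and 677 bp in Huh7. Cytosolic ribosomal protein genes reversed this order, at 1079 bp in HepG2 against 1241 bp in Huh7. Mitochondrial ribosomal protein genes kept it, with 1046 and 616 bp. The widest gap in favour of Huh7 was at replication-dependent histone genes, at 1269 bp in HepG2 against 2542.5 bp in Huh7.

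Liver function genes held YY1 more often in HepG2 alone than coding genes did as a whole. Of 47 liver plasma protein genes 11 had YY1 in both lines, 24 (51.1%, interval 37.2 to 64.7) in HepG2 alone, none in Huh7 alone and 12 in neither. The widest of the HepG2-only peaks were at ITIH3, an inter-alpha-trypsin inhibitor heavy chain (1673 bp), F11, coagulation factor XI (1268 bp), and CFB and C3 of the complement system (1019 and 700 bp). ALB, the albumin gene, and AFP, the fetal plasma protein alpha-fetoprotein gene, were chosen by their known role after values were seen, and each had a narrow peak in HepG2 alone, of 203 and 307 bp. With the HepG2 list cut to its widest 21554 peaks, the length of the Huh7 list, the count of plasma protein genes in HepG2 alone was 15 in place of 24.

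Amino acid breakdown and conjugation genes were similar. Of 22 genes of the urea cycle and amino acid breakdown, 6 had YY1 in both lines and 9 (40.9%) in HepG2 alone, led by UROC1 of histidine breakdown (1314 bp), ALDH4A1 of proline breakdown (932 bp), and ASS1 and CPS1 of the urea cycle (798 and 642 bp). Of 32 UDP-glucuronosyl and sulfotransferase genes, which conjugate drugs and bilirubin, 2 had YY1 in both and 9 (28.1%) in HepG2 alone. SULT1A2 (1847 bp) and SULT1A1 (822 bp) led them, and these neighbouring genes are near-identical copies whose reads may be hard to tell apart. Of 55 cytochrome P450 genes, 11 had YY1 in both, 13 (23.6%) in HepG2 alone, led by CYP4V2 (1296 bp), and 1 in Huh7 alone, the retinoic acid hydroxylase gene CYP26B1 (422 bp). Of 20 bile acid and drug transporter genes, 8 had it in both and 4 (20%, interval 8.07 to 41.6) in HepG2 alone. The 4 were SLC22A7, ABCB1, SLC51B and ABCC2 (790, 546, 439 and 389 bp).

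Apolipoprotein genes held YY1 in HepG2 at 13 of 15 and in Huh7 at 9. The 4 in HepG2 alone (26.7%, interval 10.9 to 52.0) were APOA5 (1584 bp), APOA2 (1279 bp), APOA4 (825 bp) and APOC2 (529 bp), and APOC4 and APOF had no peak in either line. Of the 9 in both, APOA1, the main protein of high-density lipoprotein, had a peak of 4371 bp in HepG2 and 277 bp in Huh7. APOB, the main protein of low-density lipoprotein, had 2436 and 2240 bp, LCAT 2849 and 1491 bp, APOM 1851 and 882 bp, APOC3 1459 and 724 bp, MTTP 1368 and 264 bp, APOH 979 and 222 bp, and APOC1 698 and 344 bp. APOE was the 1 member with the wider peak in Huh7, at 541 bp in HepG2 and 2210 bp in Huh7.

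The transcription factor genes of hepatocyte identity had YY1 in both lines at 16 of 21 genes. Of the others, 1 had YY1 in HepG2 alone and 1 in Huh7 alone, the latter NR5A2, a nuclear receptor of bile acid synthesis, with a 154 bp peak. The median width over the 16 shared genes was 1202 bp in HepG2 and 1537 bp in Huh7. Genes of other cell types were mostly without YY1, with 24 of 29 blood cell genes and 19 of 30 neuronal genes in neither line. The neuronal genes had 6 (20%, interval 9.51 to 37.3) in HepG2 alone, the widest peak being at SLC17A7, a vesicular glutamate transporter (917 bp), and none in Huh7 alone.

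Cholesterol and fatty acid synthesis genes had YY1 in both lines at 22 of 28. ELOVL6, a fatty acid elongase (2903 bp), NSDHL (631 bp) and HSD17B7 (522 bp) of cholesterol synthesis were among 5 in HepG2 alone. INSIG1, which holds the sterol sensor in the endoplasmic reticulum, was the 1 gene in Huh7 alone, with a 2228 bp peak.

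Wnt target genes stood on the HepG2 side. Of 20 genes, 10 had YY1 in both lines, 7 (35%, interval 18.1 to 56.7) in HepG2 alone and none in Huh7 alone. The widest were at NOTUM, a secreted Wnt deacylase (3466 bp), AXIN2, a scaffold of the beta-catenin destruction complex (2995 bp), LGR5, an R-spondin receptor (2374 bp), and NKD1, a Wnt feedback inhibitor (1488 bp). All 4 are themselves feedback or receptor genes of the pathway. The count was 7 also with the shortened HepG2 list and 8 with peaks set to 200 bp.

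Mesenchymal and YAP-linked genes were divided. Of 26 genes, 8 had YY1 in both lines, 8 in HepG2 alone and 2 in Huh7 alone. The HepG2 genes included THBS1, an extracellular matrix glycoprotein (1503 bp), ACTA2, smooth muscle actin (1421 bp), and AXL, a receptor kinase (648 bp). The Huh7 genes were VIM, the intermediate filament vimentin (2220 bp), and ZEB2, a repressor active in epithelial-mesenchymal transition (561 bp).

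Immediate-early genes, which respond to growth signals within minutes, had YY1 in both lines at 22 of 28. FOSB, FOSL1, EGR4 and EGR3 had it in HepG2 alone (606, 573, 358 and 180 bp), and the zinc finger genes KLF2 and KLF4 in Huh7 alone (5085 and 840 bp). Circadian clock genes had it in both lines at 14 of 16. NR1D1, the repressor REV-ERB alpha, had a 1609 bp peak in HepG2 alone, and BHLHE41 had none in either line. Among the 14, CLOCK (1655 bp in HepG2, 1180 bp in Huh7) and BMAL1 (461 and 198 bp) were wider in HepG2. So were BMAL2 (866 and 751 bp), CRY1 (894 and 593 bp), CRY2 (737 and 662 bp) and DBP (459 and 168 bp). HLF (1752 and 491 bp), NFIL3 (1397 and 786 bp) and BHLHE40 (1935 and 1634 bp) were also wider in HepG2. PER1 (617 and 830 bp), PER2 (1121 and 1472 bp) and PER3 (409 and 822 bp) were wider in Huh7. The same held for NR1D2 (1203 and 1707 bp) and, by 9 bp, TEF (1088 and 1097 bp). Nuclear receptors had YY1 in both at 25 of 46, in HepG2 alone at 7 (15.2%) and in Huh7 alone at 2 (4.35%), near the shares of all coding genes. ESR2 (1373 bp) and THRA (1341 bp) came after NR1D1 in HepG2, and the Huh7 genes were RARB (205 bp) and NR5A2.

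Imprinted genes, read from 1 parental copy, had YY1 in both lines at 9 of 22, in HepG2 alone at 5 (22.7%, interval 10.1 to 43.4) and in Huh7 alone at 1 (4.55%). PEG3 and ZIM2 share a start region and 1 peak of 3701 bp, which holds the PEG3 element printed above. SNRPN (1098 bp) and DLK1 (532 bp) followed in HepG2, and GRB10, an adaptor that restrains growth signalling, had a 166 bp peak in Huh7 alone.

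Histone and developmental gene families were where the Huh7-only share was highest among the lists, together with the cancer-testis genes. Of 64 replication-dependent histone genes 50 had YY1 in both lines, 8 (12.5%, interval 6.47 to 22.8) in Huh7 alone and 1, H3C8 (1046 bp), in HepG2 alone. H2AC25 and H2BC26 share 1 Huh7 peak of 2577 bp, and H3C11 and H4C13 another of 2399 bp, so these genes are not independent. HOX genes, which pattern the body axis, had YY1 in both lines at 5 of 39, in HepG2 alone at 4 (10.3%) and in Huh7 alone at 7 (17.9%, 8.98 to 32.7). HOXC10 (1229 bp) led in Huh7 and HOXA4 (1137 bp) in HepG2, and the other named HOX peaks were narrow, such as HOXC6 and HOXA7 in Huh7 (200 and 198 bp) and HOXA5 in HepG2 (268 bp). Other homeobox and PAX genes had 11 of 63 in both, 7 in HepG2 alone led by DLX2 (995 bp), and 9 in Huh7 alone led by the eye and islet factor PAX6 (547 bp), ALX1 (465 bp) and PAX5 (428 bp).

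Zinc finger genes of chromosome 19, many of which repress retrotransposons, had YY1 in both lines at 141 of 246, in HepG2 alone at 56 (22.8%, 18.0 to 28.4) and in Huh7 alone at 11 (4.47%, 2.51 to 7.83). The widest were at ZNF473 (1253 bp), ZNF331 (1218 bp), ZNF613 (1172 bp) and ZNF345 (1144 bp) in HepG2, and at ZNF302 (1169 bp), ZNF506 (867 bp), ZNF470 and ZNF586 (641 bp each) in Huh7. Cancer-testis antigen genes had YY1 at 8 of 65, all in Huh7 alone, with widths up to 286 bp at GAGE12I and 282 bp at GAGE2D. The GAGE genes are near-identical tandem copies, so their reads cannot be assigned to 1 gene with certainty. YY1 was in neither line at 386 of 390 olfactory receptor genes, 141 of 149 keratin genes and 44 of 53 clustered protocadherin genes. Of the other protocadherin genes, 4 (7.55% of the list) had it in HepG2 alone, 3 (5.66%) in Huh7 alone and 2 in both.

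YY1 lay at the genes of its own partners in both lines. Of 16 genes of the INO80 complex 15 had YY1 in both, and NFRKB had a 497 bp peak in HepG2 alone. The YY1 gene itself had 2829 bp in HepG2 and 1444 bp in Huh7, and INO80 had 1197 and 704 bp. HepG2 was wider at ACTL6A (1132 and 224 bp), ACTR5 (1112 and 710 bp), ACTR8 (964 and 426 bp), INO80B (909 and 474 bp), INO80C (748 and 298 bp), INO80D (2449 and 440 bp), MCRS1 (760 and 290 bp), RUVBL2 (898 and 194 bp) and UCHL5 (977 and 509 bp). Huh7 was wider at ACTB, which also encodes cytoskeletal beta-actin (1455 and 9663 bp), INO80E (1357 and 1365 bp), RUVBL1 (725 and 845 bp) and TFPT (774 and 1207 bp). Of 34 genes of the YY1 family and Polycomb proteins 27 had YY1 in both and 5 (14.7%) in HepG2 alone, near the 14% of all coding genes. Among the 5 were RBBP7, a histone chaperone subunit (1987 bp), CBX2, a reader of methylated histone H3 (1836 bp), BAP1, a histone H2A deubiquitinase (1247 bp), and RYBP, a YY1-binding Polycomb subunit (725 bp).

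Distal peaks inside genes gave the lines another order. Counting coding genes with the centre of a distal peak in their body, 28.5% of all genes held a HepG2-only peak, 13.5% a Huh7-only peak and 9.32% a shared one. Cytosolic ribosomal protein genes, which are short (median 5548 bp), held Huh7-only distal peaks in 37 of 87 (42.5%, 66 peaks), HepG2-only ones in 7 and shared ones in 7. Examples of the 37, picked after the values were seen, are RPL4, RPL11, RPL28, RPL29, RPS3, RPS9, RPS24 and RPSA. Spliceosome and SR protein genes held Huh7-only peaks in 14 of 39 against 7 with HepG2-only ones, translation initiation factors in 14 of 56 against 6, and cholesterol and fatty acid synthesis genes in 16 of 28, with 50 peaks, against 10. Most genes of these 4 lists had YY1 at a start in both lines (81, 38, 46 and 22 genes). RPL34 held a Huh7-only peak in its body and none of Huh7 at its start.

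In liver function, nuclear receptor and Wnt lists HepG2-only peaks were mostly the more frequent, which is also the order over all coding genes. Liver plasma protein genes held HepG2-only distal peaks in 22 of 47 and Huh7-only ones in 6, urea cycle and amino acid breakdown genes in 14 of 22 and 1, bile acid and drug transporters in 11 of 20 and 4, nuclear receptors in 22 of 46 and 7, and Wnt target genes in 11 of 20 and 4. The Huh7-only share of the plasma protein genes (12.8%) was near that of all coding genes. Apolipoprotein genes held peaks of each kind in 3 of 15. Hepatocyte transcription factor genes held shared distal peaks in 11 of 21, against 9.32% of all coding genes, HepG2-only ones in 10 and Huh7-only ones in 6. Long genes can hold more peaks by length alone, and these lists range from a median length of 3531 bp for apolipoproteins to 54262 bp for the transporters.

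**Figure D5:**
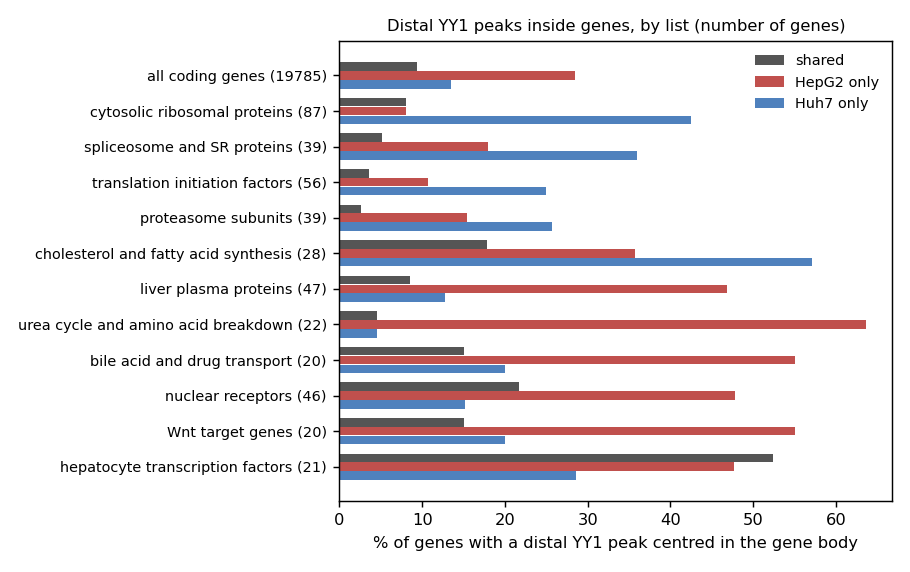
Percentage of the genes of each list (horizontal axis) with the centre of a distal YY1 peak in the gene body, for shared, HepG2-only and Huh7-only peaks. The Huh7-only bar exceeds the HepG2-only bar at ribosomal protein (42.5% against 8.05%) and cholesterol and fatty acid synthesis genes (57.1% against 35.7%), and the order is turned at urea cycle genes (4.55% against 63.6%).

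In the HepG2 list the 10 widest shared promoter peaks lay at the following genes. IGF2, a fetal growth factor gene that liver tumours often express, had the widest, at 12322 bp (chr11:2149496-2161817), and INO80 of Huh7 was absent from it. TNRC18 (7080 bp), PCGF2, a Polycomb subunit (6968 bp), SP5, a Wnt-responsive zinc finger factor (5859 bp), IRF2BP2, a corepressor (5845 bp), MLLT6 (5844 bp), GSE1 (5783 bp), the phosphatase gene CTDSP1 (5670 bp), SLC16A3, a lactate exporter (5363 bp), and BRD2, a reader of acetylated histones (5298 bp), followed. INO80 was present in both lines at 9 of these 10. Among shared distal peaks of the HepG2 list the widest, of 4309 bp, was intergenic near MRPL23 (chr11:2008195-2012503), 39621 bp from its start. Another of 3569 bp lay at 5S ribosomal RNA genes near RHOU. Shared peaks of the Huh7 list were not ranked here and reached 14947 bp at promoters and 38438 bp at distal sites.

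The widest HepG2-only promoter peaks lay at DHRS2, a reductase gene (4741 bp, chr14:24104938-24109678), BCOR, a corepressor of a Polycomb complex (4003 bp), PEG3 (3701 bp), CARHSP1 (3634 bp), DNMT3A, a DNA methyltransferase (3072 bp), AXIN2 (2995 bp), the adaptor gene GRB7 (2938 bp), PKDCC (2907 bp), GSTA4 with the small RNA gene RN7SK (2858 bp) and BPIFB2 (2814 bp). The nearest Huh7 YY1 peak to the DHRS2 peak was 79173 bp away, and to the AXIN2 peak 173938 bp. INO80 of HepG2 was at all 10 and INO80 of Huh7 at 1, the GSTA4 site. The widest HepG2-only distal peak covered 4368 bp in an intron of HLF, a circadian leucine zipper factor of liver (chr17:53360553-53364920), followed by one of 3486 bp in an intron of PLEKHM3 whose nearest start is FZD5, a Wnt receptor.

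The widest Huh7-only promoter peaks lay at YPEL4 (5209 bp, chr11:57412557-57417765), KLF2 (5085 bp), RACK1, a scaffold protein of the ribosome (4183 bp), COL9A3, a collagen chain (3565 bp), SLC29A2, a nucleoside transporter (3092 bp), HMX3, a homeobox gene (2947 bp), TNFRSF6B, a decoy receptor (2894 bp), NEU4, a sialidase (2858 bp), RHOD, a small GTPase (2596 bp), and RND3, another (2456 bp). INO80 of HepG2 was at 8 of these 10, and HepG2 YY1 peaks lay within 500 bp of 4 of them, COL9A3 (306 bp), TNFRSF6B (463 bp), NEU4 (405 bp) and RND3 (18 bp). At those 4 genes a HepG2 peak was thus close beside the Huh7-only one.

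The widest Huh7-only distal peaks lay mostly inside or beside genes. SLC29A2 had 9294 bp centred in a coding exon (chr11:66127166-66136459), SLC16A3 5651 bp, SBF1 5406 bp, RPL29 5124 bp beside the gene, RPS9 4787 bp, UBE2S with RPL28 4549 bp, the long non-coding RNA gene MALAT1 4490 bp, SH3GL1 4261 bp and RPL27 4245 bp. RUVBL2 of Huh7 was at all 10 of the widest and INO80 of Huh7 at 6, while among the 10 widest Huh7-only promoter peaks RUVBL2 was at 6 and INO80 at 8. RPL29, RPS9, RPL28 and RPL27 thus placed ribosomal protein genes among the widest sites as well.

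Non-coding starts accounted for a part of the distal sites. Within 1 kb of a non-coding start lay 17.5% of shared distal peaks of the HepG2 list, 8.63% of HepG2-only and 9.80% of Huh7-only ones. Long non-coding RNA starts gave 12.4%, 5.59% and 5.60%. Starts of small nucleolar RNA genes, which often sit in introns of ribosomal protein genes, gave 34 Huh7-only peaks (0.544%, interval 0.389 to 0.759) and 19 HepG2-only ones (0.0887%, 0.0568 to 0.138).

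Few peaks lay near the edge of the overlap rule. In the HepG2 list 41 shared peaks had 1 to 10 bp in common with a Huh7 peak (median width 246 bp), and 47 HepG2-only peaks lay within 10 bp of one (238 bp). In the Huh7 list these were 42 (226.5 bp) and 48 peaks (186 bp). Private Huh7 sites were nearer to sites of the other line: 11.9% lay within 500 bp of a HepG2 peak and the median distance was 6745 bp, against 3.46% and 28343 bp for HepG2-only sites.

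The chromosomes differed moderately. The shared part of the HepG2 list ran from 28.4% on chromosome 21 to 44.6% on chromosome 19, and that of the Huh7 list from 54.6% on chromosome 22 to 72.7% on chromosome 6. HepG2 is known to have gained copies of chromosomes 2, 14, 16, 17 and 20. These had shared parts of 30.5%, 31.0%, 31.6%, 32.9% and 29.4% in the HepG2 list. Other chromosomes had values as low, among them 6 (30.4%) and 21. Copy number was not measured here, and its part in these values was not tested. Chromosome 19, rich in zinc finger and other genes, held 7.85% of Huh7 and 5.77% of HepG2 peaks. Read depth is not in the lists, and whether a site of 1 line lay just under the calling threshold in the other was not detectable here.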

How the data were processed

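Peak lists of 9 factor and line combinations were used as the authors deposited them, with 6 columns that give positions and names and no score. The deposited positions (other values, in bp) start at 0 and were converted to 1-based coordinates on hg19. Per the submitters' processing notes, Bowtie2, SAMtools, MACS2, bedtools and deepTools were used; filters, pooling of libraries and the handling of reads with several matches are not given in the sources used here. Per the labels, YY1 in Huh7 had 2 libraries, while YY1 in HepG2 has no sample record.

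Overlap, widths and distances were computed with pandas 2.3.3 and numpy 2.4.6, and were tested on simulated peaks first. Starts are those of protein-coding transcripts in the basic set of GENCODE release 44 lifted to GRCh37, and sequence came from GRCh37. Motifs were searched in 200 bases about peak centres. Intervals are 95% Wilson, or Newcombe for differences. A repeat family was the commonest word of 20 bases in a class of distal peaks with all words found in at least 5% of the peaks that hold it, and a peak joined a family with 3 such words in 400 bases. Genome windows were taken every 10 kb.

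The members, the 35 gene lists and the comparisons were chosen with earlier results of these data known. Of the list entries 2041 matched GENCODE symbols and 2 did not (PEG13, TRAC). Named were the 10 widest promoter and distal peaks of each class, up to 4 genes per list and line with the widest peak first, every member of lists of up to 16, and sequences of the widest peaks holding the long YY1 element. Shared peaks and their sequences were ranked in the HepG2 list. Sequences beside untranslated exons were shortened to 29 bases, and some genes and sequences that the rule chose are not reported here. The alternatives were overlap of 50% of the shorter peak, gaps of up to 500 bp, peaks set to 200 bp, lists of equal length, starts within 5 kb, starts of all genes, autosomes, and chromosomes without known HepG2 gains.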

Additional observations from a re-analysis of the deposited data

How the results depend on the processing

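No alternative turned a direction, and both counts of genes with YY1 in 1 line stayed within 1.5 times: 2100 to 3111 for HepG2 alone and 508 to 858 for Huh7 alone, the last with lists of equal length. The share of HepG2 peaks found in Huh7 (35.9%) became 33.7% when 50% of the shorter peak had to overlap, 38.1% with gaps of up to 500 bp, 24.3% with peaks set to 200 bp, 53.1% for the widest HepG2 peaks in a list as long as that of Huh7, and 37.7% without chromosomes 2, 14, 16, 17 and 20. The share of Huh7 peaks found in HepG2 (65.8%) became 61.7%, 69.9%, 44.2% and 53.8% under the first 4 of these. The promoter difference in the HepG2 list (46.0 points) became 44.7 with gaps, 35.2 with 200 bp peaks, 47.7 with equal lists, 38.1 with starts within 5 kb, 46.9 on autosomes and 44.1 without the 5 chromosomes. In the Huh7 list (46.5 points) it became 22.9 with 200 bp peaks, 59.8 with equal lists, 31.7 within 5 kb, 44.8 with starts of all genes and 44.9 without the 5 chromosomes. Leaving out the 3 repeat families, an alternative chosen after seeing the data, gave 33.3% and 71.1% for the shares and 57.9 and 51.3 points for the differences. The cause of these moves was not tested. No paired analysis was possible because each line has 1 list. All shares and widths rest on where peaks were called, which follows depth as well as occupancy. The depth behind either list is unknown.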
